A study of Mus musculus with 31 samples.

Results

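Phase II conjugation enzymes attach a glucuronic acid, a sulphate or a glutathione group to drugs, toxins, hormones and bile pigments, which makes them more soluble in water and easier to excrete. They were described here in the distal colon of mice in a chemically induced model of colorectal cancer, with or without E171, the food additive titanium dioxide. The study places the responses at these times before the formation of tumours. The enzymes were chosen by gene name on the array: Ugt1a, Ugt2a, Ugt2b or Ugt3a with a number, Gst with one of the letters a, m, p, t, k, o or z and a number, Mgst with a number, and Sult with a number and a letter. This rule gave 56 genes on 81 probes, out of 24892 named genes on 56605 probes. They fell into 14 UDP-glucuronosyltransferases (UGT), 19 sulphotransferases (SULT), 20 cytosolic glutathione transferases (GST) and 3 microsomal glutathione transferases (MGST). Of the 56 genes 42 passed the filter on dim probes (9 UGT, 11 SULT, 19 GST and 3 MGST) and were tested among 19845 genes.

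UGT enzymes sit in the endoplasmic reticulum and use UDP-glucuronic acid, SULT enzymes of the cytosol use the sulphate donor PAPS, and GST enzymes use glutathione. In the gut these enzymes are mainly epithelial and form part of the barrier against what is swallowed. Many of them are induced through receptors and factors such as the pregnane X receptor, the aryl hydrocarbon receptor and NRF2, and several depend on epithelial factors such as HNF4 and CDX2.

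All mice were BALB/c, 4 to 6 weeks of age when placed into groups after acclimatisation, and all received azoxymethane (AOM) by injection and dextran sulphate sodium (DSS) in the drinking water, so the controls carried the cancer model as well. The CRC group got water by gavage and the CRC + E171 group got E171 at 5 mg/kg of body weight per day, and colon was taken on days 2, 7, 14 and 21. Each of the 8 groups of treatment and day held 4 arrays of 1 mouse each (by label 2 males and 2 females), except CRC at 21 days with 3 (1 male and 2 females). For 1 array of CRC at 14 days the sex genes did not match the label, as given below. No mice without AOM and DSS are among the 31 arrays, and on no single day did a slide hold both treatments.

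Levels are log2 signals relative to the 75th percentile of the array, which is 0, and the number of arrays limits their precision. The share of spots well above background was 67.4 to 78.9% per array. Xist and Uty of the array labelled CRC 14 days male 2 lay within the range of the females, at -1.60 and -7.59. The other 14 males were at -8.51 to -6.53 for Xist and at -4.19 to -3.44 for Uty. The array was counted as male, by its label, in the tests of sex with all arrays. In addition, 2 sets of 3 arrays stood apart by marker genes of cell types, which were read before the results below. The first set is CRC 7 days male 1 and male 2 and CRC + E171 14 days male 2, where the summed level of 7 markers of absorptive colonocytes was 2.64, 4.64 and 5.54 against 7.63 to 9.33 in the other 28 arrays. Goblet cell markers on these 3 arrays were at 1.43, 6.52 and 4.20, against 8.06 to 9.63 elsewhere, and general epithelial markers at 5.35, 7.45 and 8.49, against 8.41 to 9.28. Squamous epithelium markers were at 9.22, 0.64 and 7.86, against 0.03 to 8.29. Neutrophil markers were at 7.10 to 8.42 there and at 5.47 to 6.27 elsewhere, and the skeletal muscle level of CRC 7 days male 1 was 9.07, against 0.65 to 3.88 on the 28 arrays outside this set. The second set is CRC + E171 7 days female 2 and CRC + E171 14 days female 1 and female 2, where the summed level of 4 posterior Hox genes, which mark the distal gut, was -3.41, -1.56 and -3.76 against 1.96 to 6.60 elsewhere. The label of distal colon was thus not matched by the posterior Hox genes on these 3 arrays, while their colonocyte markers were at 8.74, 9.33 and 8.52, against 7.63 to 8.67 on the 25 arrays of neither set. Small intestine markers on these 3 arrays were at 1.44 to 6.07, against -0.75 to 2.15 on the 25 arrays of neither set, and pancreatic acinar markers at 0.50 to 0.69 against 3.14 to 10.5. The counts of calls for E171, and the enzymes called for it, are given with and without these sets where the value moved.

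The sequences just before the start of 4 Ugt2b genes are shown first, because these 4 genes were high on the same 3 arrays. The stretch marked is the longest that all 4 share. The sequences are from RefSeq (GRCm38.p6), and run 5′ to 3′ on the strand of the gene over the 250 bases before its start. Capitals mark the 22 bases that all 4 share. Ugt2b36 lies at chr5:87092556-87092805, Ugt2b5 at chr5:87140341-87140590, Ugt2b37 at chr5:87254789-87255038 and Ugt2b38 at chr5:87424204-87424453, each on the minus strand.
Ugt2b36: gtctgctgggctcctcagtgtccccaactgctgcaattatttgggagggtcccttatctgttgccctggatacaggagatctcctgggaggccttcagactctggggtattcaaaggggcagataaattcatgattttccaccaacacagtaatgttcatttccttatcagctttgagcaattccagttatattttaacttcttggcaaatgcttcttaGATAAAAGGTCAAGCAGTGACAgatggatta
Ugt2b5: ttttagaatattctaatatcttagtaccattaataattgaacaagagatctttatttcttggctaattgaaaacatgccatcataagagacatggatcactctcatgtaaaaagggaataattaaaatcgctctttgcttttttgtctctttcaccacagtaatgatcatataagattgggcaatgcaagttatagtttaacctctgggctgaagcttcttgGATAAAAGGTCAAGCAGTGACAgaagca
Ugt2b37: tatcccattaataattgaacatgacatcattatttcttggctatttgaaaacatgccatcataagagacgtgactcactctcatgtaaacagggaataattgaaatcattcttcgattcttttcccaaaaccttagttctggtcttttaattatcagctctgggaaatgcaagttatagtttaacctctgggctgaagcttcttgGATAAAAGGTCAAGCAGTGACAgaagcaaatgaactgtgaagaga
Ugt2b38: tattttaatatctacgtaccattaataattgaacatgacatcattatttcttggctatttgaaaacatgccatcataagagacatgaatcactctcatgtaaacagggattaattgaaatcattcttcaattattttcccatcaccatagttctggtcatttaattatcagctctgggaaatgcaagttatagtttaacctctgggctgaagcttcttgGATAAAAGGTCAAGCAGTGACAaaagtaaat

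The shared stretch ended 9, 6, 23 and 9 bases before the start of Ugt2b36, Ugt2b5, Ugt2b37 and Ugt2b38. It is the longest run of bases common to these 4 genes, so all 4 hold it by construction. The genes were picked for being high on the same 3 arrays. The stretch was found, on either strand, in 4 of 32851 promoter entries (0.0122%), which were those of these 4 genes. It holds the letters AGGTCA, a nuclear receptor motif that 14.0% of all promoter entries hold on either strand. Of the 60 promoter entries of the enzymes 9 hold this motif. Among them is that of Ugt2b35, whose levels on the 3 low posterior Hox arrays overlapped with those of the other arrays. On the gene's own strand, the nearest window of 22 bases matched the shared stretch at 16 bases in Ugt2b35, 14 in Ugt2b1 and 12 in Ugt2b34. Over the 250 bases Ugt2b37 and Ugt2b38 were 85.6% identical, Ugt2b5 and Ugt2b38 82.3%, and Ugt2b5 and Ugt2b37 73%. Ugt2b36 was 57.1 to 61.1% identical to these genes, and Ugt2b35, which lacks the stretch, 55.5 to 57.2%. Ugt2b34 was 48.7 to 53.2% identical to the other genes compared. A match of letters is a description and neither a binding site nor a cause. For contrast the promoter of Ugt2b34 (chr5:86906938-86907187, minus strand, RefSeq, GRCm38.p6) is shown with no capitals, since this Ugt2b gene was at 3.05 to 4.29 on the 25 arrays of neither set and at most 0.90 on those with few colonocyte transcripts, although it too was highest on the 3 arrays with few posterior Hox transcripts (4.55 to 4.86).
Ugt2b34: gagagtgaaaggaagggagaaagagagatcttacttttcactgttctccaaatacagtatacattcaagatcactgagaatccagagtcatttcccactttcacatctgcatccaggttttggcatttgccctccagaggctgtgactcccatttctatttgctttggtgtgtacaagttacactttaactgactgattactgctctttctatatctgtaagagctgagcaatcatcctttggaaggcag

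Comparing CRC + E171 with CRC on the same day, 12 of 42 enzymes were called at 7 days and 5 at 14 days, while none was at 2 or 21 days. A gene was called where its linear fold change was 1.5 or more and its unadjusted limma p was under 0.05, thresholds after those of the study with the fold read here on the linear scale. After 2 days 1.55% of all genes were called up-regulated and 0.171% down-regulated. After 7 days 11 enzymes (26.2%) were up-regulated and 1 was down-regulated, against 6.93% and 5.48% of all genes. After 14 days 5 enzymes (11.9%) were up-regulated and 0 down-regulated, against 3.24% and 3.11% of all genes. After 21 days the background was 0.842% up and 1.82% down. After adjustment 0 enzymes and 0% of all genes had a limma p under 0.05 on any of the 4 days with all arrays, whereas 0, 12, 5 and 0 enzymes did so before adjustment, against 2.73%, 16.8%, 7.98% and 5.79% of all genes. The smallest adjusted p of an enzyme was 0.999, 0.196, 0.532 and 0.885 in order of day. The median log2 fold change of the 42 enzymes was -0.04, 0.46, 0.29 and 0.30, against 0.06, -0.01, 0.01 and 0.02 for all genes.

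Of the 12 enzymes called after 7 days, Gstk1 was the 1 still called without the arrays with few colonocyte transcripts, and of the 5 called after 14 days, Gsto1 was the 1 still called without those with few posterior Hox transcripts. Without the 3 arrays with low colonocyte markers, 1 enzyme was up-regulated after 7 days, against 1.23% of all genes (1.43% down), and 17 after 14 days, against 6.58% (7.51% down). Without the 3 arrays with low posterior Hox genes, 8 were up- and 2 down-regulated after 7 days, against 6.27% and 4.75% of all genes, and 1 was up-regulated after 14 days, against 1.41% (1.67% down). Without CRC 7 days male 1 alone, 2 enzymes were called after 7 days, against 4.65% of all genes. Without CRC 7 days female 1 alone, 18 were, against 20.1%, and 5 of them (Mgst2, Sult1b1, Sult1d1, Sult5a1 and Ugt2b34) had a limma adjusted p under 0.05, against 6.03% of all genes. Without CRC 7 days female 2 alone, 14 were called, against 18.2%, and 3 passed after adjustment, against 2.73%. Without both sets 1 was up- and 1 down-regulated after 7 days, against 1.19% and 1.59% of all genes, and 2 were up-regulated after 14 days, against 3.26% (6.63% down), with CRC + E171 at 14 days left with 1 array, whose spread was assumed to be that of the other groups. In bulk tissue, fewer cells of a type and less RNA per cell cannot be told apart, and the part of tissue composition in these results was not tested.

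**Figure D1:**
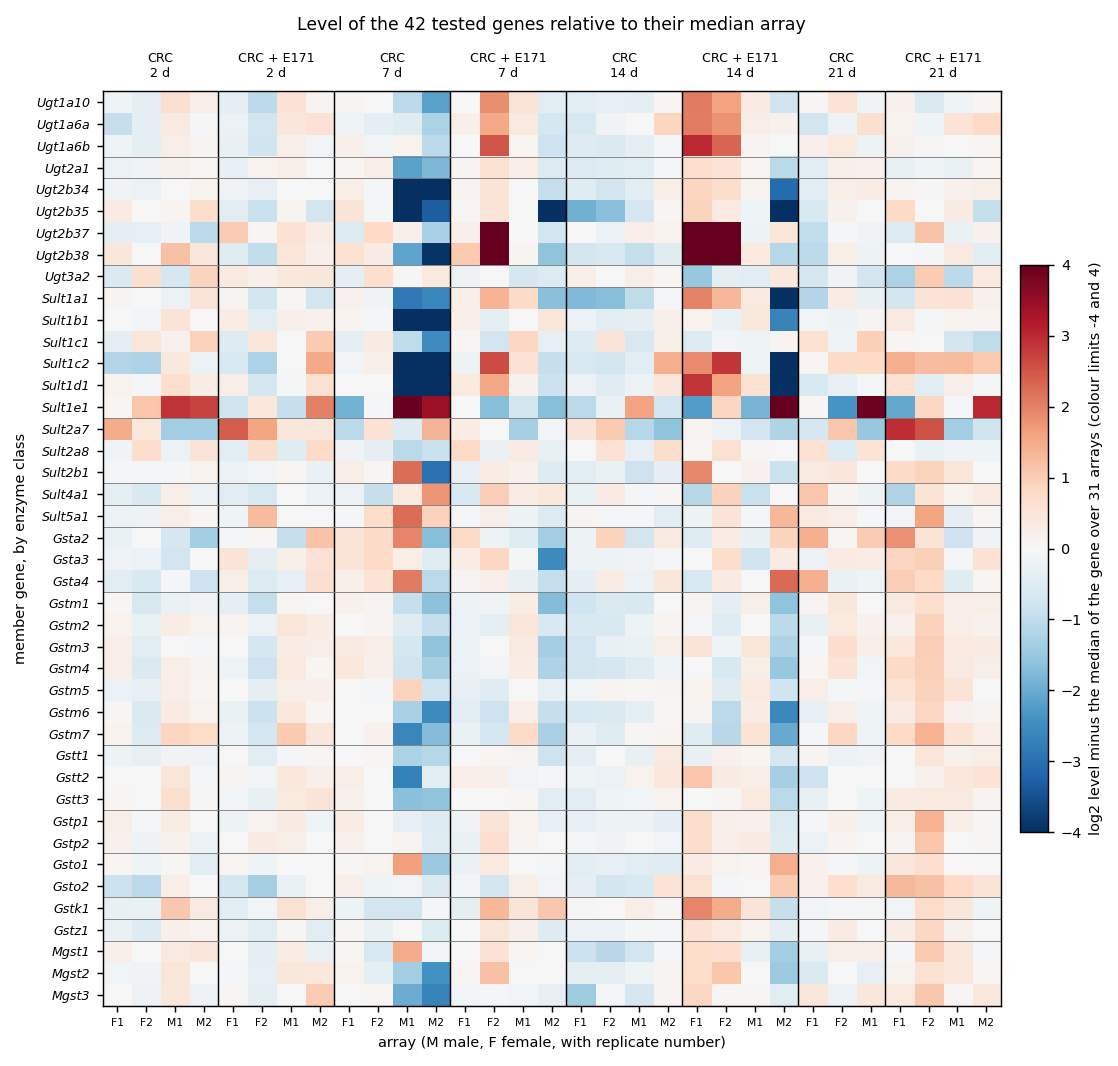
Heat map of the 42 tested enzymes (vertical axis, by class) over the 31 arrays (horizontal axis, by group), with colour for the log2 level minus the median of the gene over all arrays, limited at -4 and 4. The blue columns of CRC 7 days male 1 and male 2 and the red columns of CRC + E171 7 days female 2 and 14 days female 1 and female 2 run through several enzymes of the SULT and UGT classes.

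Among the UGT genes, the 7-day comparison called Ugt2b34, Ugt2a1 and Ugt1a10 up-regulated, and the median log2 fold change of the 9 tested was 1.0. Ugt2b34, a steroid- and drug-conjugating form of the UGT2B family, had log2 levels of 4.26 and 3.92 in the females and -5.18 and -0.92 in the males of CRC at 7 days. In CRC + E171 at 7 days it was at 4.09 and 4.55 in the females and 4.02 and 3.05 in the males. The CRC females thus lay within or above the range of the E171 males and only the CRC males were low, so the groups overlapped. The means were 3.93 ± 0.63 (SD, n = 4) in CRC + E171 and 0.52 ± 4.48 (SD, n = 4) in CRC, a log2 fold change of 3.41 (SE 1.20, limma p = 0.00891, adjusted p = 0.207, exact permutation p = 0.257). Without the arrays with low colonocyte markers the log2 fold change of Ugt2b34 was -0.16 (SE 0.31).

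Ugt2a1, first known from the nasal epithelium, was at -0.41, -0.22, -2.63 and -2.30 in the CRC arrays of 7 days (females, then males) and at -0.39, 0.11, -0.22 and -1.04 in CRC + E171. Again the CRC males alone were low. With all arrays the log2 fold change was 1.0 (SE 0.41, limma p = 0.0208, adjusted p = 0.233, exact permutation p = 0.229), and it was -0.07 without those with low colonocyte markers. Ugt1a10, a UGT1A form of the gut epithelium, was at -0.48, -0.58, -1.62 and -2.71 in CRC and at -0.61, 1.27, -0.06 and -0.99 in CRC + E171 at 7 days. Its highest array of that day was CRC + E171 7 days female 2, 1 of the arrays with low posterior Hox genes. Its log2 fold change of 1.25 (SE 0.53, limma p = 0.0274, adjusted p = 0.250, exact permutation p = 0.171) became 0.43 without the arrays with low colonocyte markers and -0.02 without both sets.

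After 14 days 4 UGT genes were up-regulated, Ugt1a6a, Ugt1a6b, Ugt2b37 and Ugt2b38, and the median of the class was 1.05. Ugt1a6a and Ugt1a6b belong to the UGT1A6 forms, which conjugate small planar phenols and are classical targets of the aryl hydrocarbon receptor. Ugt1a6b was at 0.72 and 0.66 in the females and 0.84 in male 1 of CRC at 14 days, and at 1.15 in the array labelled male 2. In CRC + E171 it was at 4.22 and 3.58 in the females and 1.36 and 1.22 in the males. The 2 E171 females stood far above all others, and the E171 males just above the CRC arrays, so the groups did not overlap. The log2 fold change of Ugt1a6b was 1.75 (SE 0.56, limma p = 0.00426, adjusted p = 0.532) and the exact permutation p was 0.0286, the smallest that 4 against 4 arrays can give. It became 0.45 (SE 0.31) without the arrays with low posterior Hox genes and 2.21 (SE 0.56, adjusted p = 0.0441) without those with low colonocyte markers.

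The 3 probes of Ugt1a6b lie on chromosome 1 in the mm9 annotation of the array, at chr1:90004249-90004308, chr1:90114900-90114959 and chr1:90115493-90115552. The Ugt1a genes share their last exons, so a probe there reads transcripts of several Ugt1a genes. Whether these probes, or the probe of Ugt1a6a given below, lie there was not determined. The calls of Ugt1a6a and Ugt1a6b may therefore not be separate. All 3 probes were high on the 3 arrays with low posterior Hox genes. The first probe was at 0.10 to 1.24 on these arrays and at -4.67 to -1.70 on the other 28. Ugt1a6a (probe at chr1:90116514-90116573) had a log2 fold change of 1.05 (SE 0.47, limma p = 0.0347, adjusted p = 0.590, exact permutation p = 0.143) at 14 days and 0.20 without the arrays with low posterior Hox genes. Its E171 females were at -1.08 and -1.33 and its E171 males at -2.85 and -2.96, within the range of -3.75 to -2.27 of the CRC arrays.

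Ugt2b37 and Ugt2b38, whose promoters are printed above, are UGT2B forms. Ugt2b38 was at -5.19, -5.09, -5.41 and -4.92 in the CRC arrays of 14 days. In CRC + E171 at 14 days it was at 3.37 and 2.23 in the females and -4.05 and -5.58 in the males. Only the E171 females were high, by more than the whole spread of the other arrays of that day. Ugt2b38 differed by 4.15 on the log2 scale (SE 1.53, limma p = 0.0118, adjusted p = 0.532, exact permutation p = 0.143) and became 0.34 (SE 0.87) without the arrays with low posterior Hox genes. Ugt2b37 showed the same arrays, with 0.79 and 0.45 in the E171 females, -4.52 and -3.83 in the E171 males and -4.55 to -4.04 in CRC. Its log2 fold change of 2.49 (SE 0.96, limma p = 0.0152, adjusted p = 0.548, exact permutation p = 0.143) became 0.09 without these arrays and -0.25 without both sets. On CRC + E171 7 days female 2, Ugt2b38 was at 2.38 and Ugt2b37 at 0.13.

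Ugt2b5 and Ugt2b36, which carry the same promoter stretch, did not pass the filter and were not tested. Ugt2b5 was at 1.40, 2.41 and 1.51 on the 3 arrays with low posterior Hox genes and at -8.94 to -4.61 on the other 28, and was well above background on 10 of 31 arrays. Ugt2b36 was at 0.17, 0.38 and 0.36 on these 3 arrays and at -8.63 to -4.87 elsewhere, and was well above background on 6 arrays. The probes of Ugt2b37 and Ugt2b5 matched at 46 of 60 bases, so cross-hybridisation and expression cannot be told apart for this pair, whereas those of Ugt2b37 and Ugt2b38 matched at 19 of 60. Ugt2b35 was tested and not called on any day. Ugt2a3, Ugt2b1 and Ugt3a1 were well above background on at most 5 arrays each and were not tested.

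**Figure D2:**
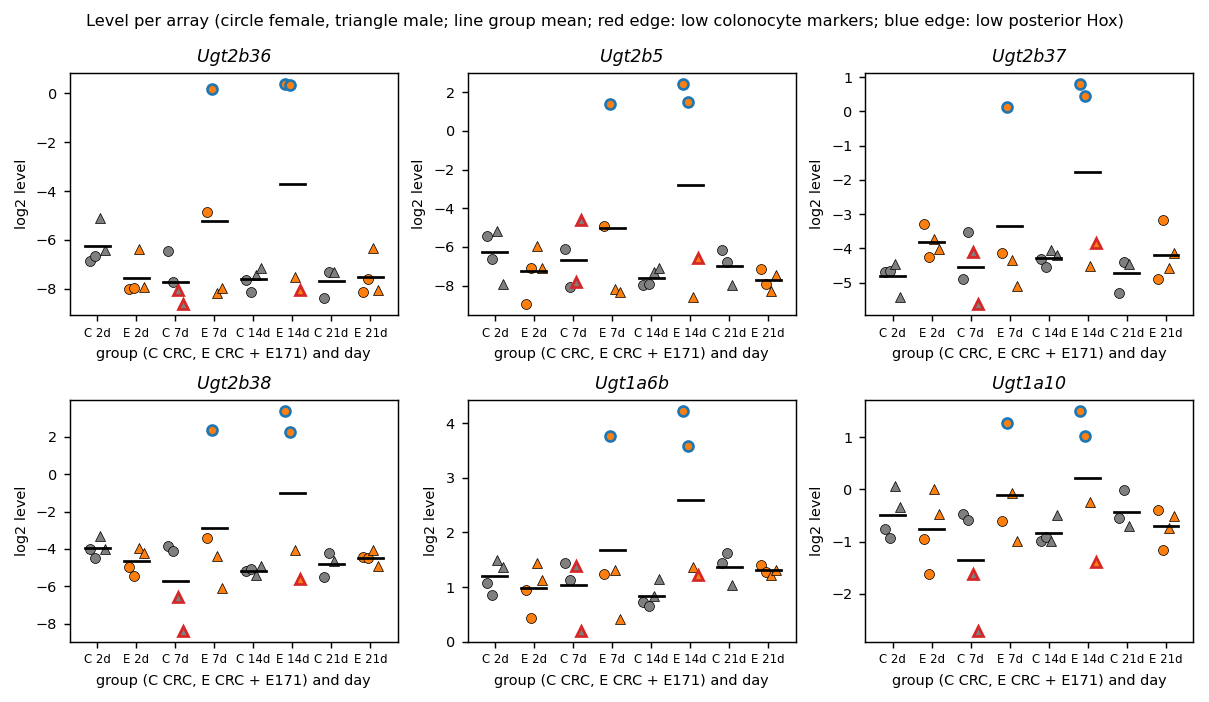
Log2 level (vertical axis, 0 is the 75th percentile of the array) of 6 UGT genes in each array, by group of treatment and day (horizontal axis). In Ugt2b36, Ugt2b5, Ugt2b37 and Ugt2b38 the same 3 CRC + E171 arrays, 1 of 7 days and 2 of 14 days, stand above all other arrays.

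Among the 11 tested SULT genes 4 were up-regulated and 1 was down-regulated after 7 days, with a median log2 fold change of 0.75, and none was called after 14 days. Sult1b1 and Sult1d1, phenol- and catecholamine-sulphating forms of the gut, and Sult1c2 had the widest differences. Sult1b1 was at 2.12 and 1.97 in the CRC females of 7 days and at -5.24 and -2.58 in the CRC males. In CRC + E171 at 7 days it was at 2.23 and 1.65 in the females and 2.03 and 2.49 in the males. The CRC females lay among the E171 arrays and the CRC males far below. Its log2 fold change was 3.03 (SE 0.96, limma p = 0.00417, adjusted p = 0.196, exact permutation p = 0.171) with all arrays and 0.05 (SE 0.25) without those with low colonocyte markers. Outside those arrays Sult1b1 was at 1.57 to 2.57 in every group, a narrow range.

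Sult1d1 was at 1.78 and 1.79 in the CRC females of 7 days and at -7.59 and -4.47 in the CRC males. Its E171 arrays were at 2.18 and 3.33 in the females and 1.95 and 0.92 in the males, so again only the CRC males were low. Sult1d1 thus had a log2 fold change of 4.22 (SE 1.40, limma p = 0.00593, adjusted p = 0.200, exact permutation p = 0.143), and 0.31 (SE 0.52) without the arrays with low colonocyte markers. Sult1c2 (mm9 chr17:53969205-53969264) was at 1.13, 1.46, -6.73 and -3.51 in CRC and at 1.03, 3.86, 1.81 and 0.33 in CRC + E171, in the same order. Its log2 fold change of 3.67 (SE 1.41, limma p = 0.0154, adjusted p = 0.220, exact permutation p = 0.200) became 0.46 without those arrays and -0.24 without both sets. On CRC 7 days male 1 neither Sult1d1 nor Sult1c2 was well above background, so the sizes of these fold changes rest in part on levels near the floor.

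The other SULT calls after 7 days were smaller. Sult2a8, of the SULT2A family that sulphates steroids and bile acids in the liver, was at -1.52, -1.75, -2.47 and -2.27 in CRC and at -0.58, -1.67, -1.06 and -1.70 in CRC + E171. The groups overlapped by little, and the log2 fold change was 0.75 (SE 0.34, limma p = 0.0346, adjusted p = 0.269, exact permutation p = 0.114). Sult5a1 fell by 1.10 on the log2 scale (SE 0.42, limma p = 0.0148, adjusted p = 0.219, exact permutation p = 0.0857). It was near the lower end of the signal, at -5.99 to -5.21 in CRC + E171 and -5.54 to -3.21 in CRC, and its highest array was CRC 7 days male 1. Without the arrays with low colonocyte markers the log2 fold change was 0.38 for Sult2a8 and -0.47 for Sult5a1, and neither was called.

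**Figure D3:**
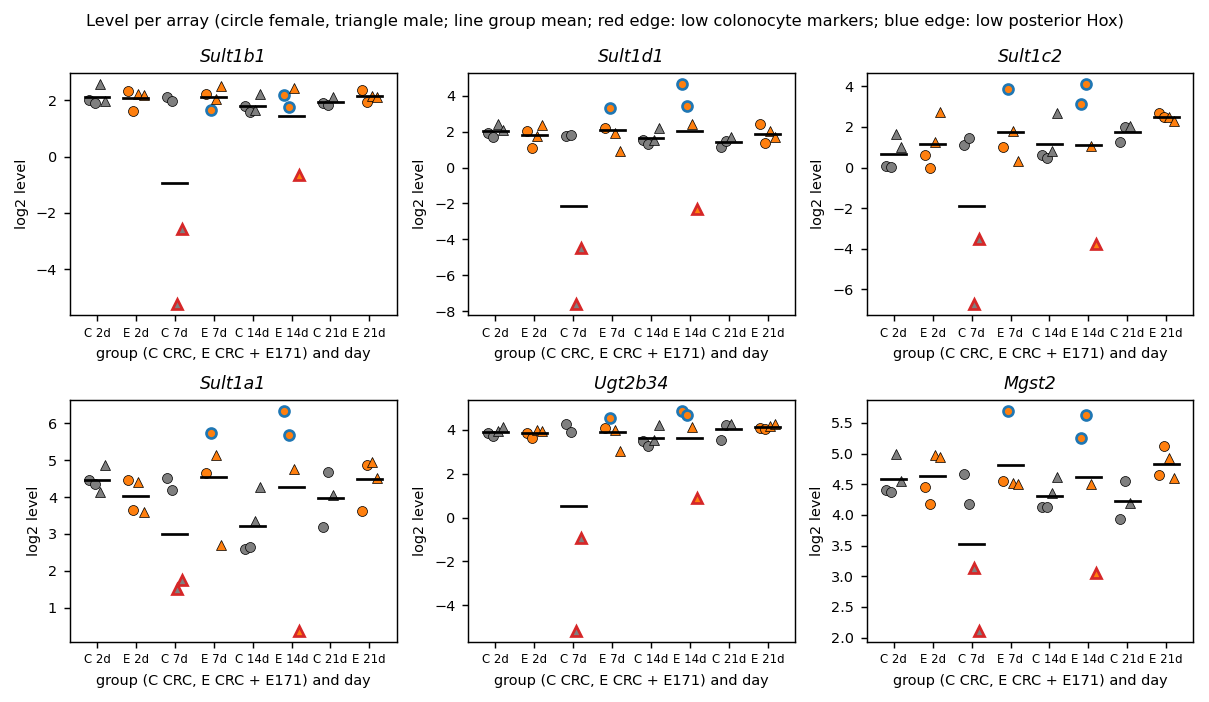
Log2 level (vertical axis, 0 is the 75th percentile of the array) of Sult1b1, Sult1d1, Sult1c2, Sult1a1, Ugt2b34 and Mgst2 in each array, by group of treatment and day (horizontal axis). The 2 CRC males of 7 days and CRC + E171 14 days male 2 lie below the other arrays in all 6 genes.

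Sult1a1, the main phenol sulphotransferase of many tissues, was not called on any day with all arrays, but it had wide differences between arrays. At 14 days it was at 2.60, 2.65, 3.36 and 4.28 in CRC and at 6.33, 5.68, 4.75 and 0.37 in CRC + E171, the last being male 2 with low colonocyte markers. That array was the lowest of all 31 for Sult1a1 and the 2 E171 females were near the top. Without the arrays with low colonocyte markers, Sult1a1 was 2.36 higher on the log2 scale in CRC + E171 at 14 days (adjusted p = 0.0384), Sult1d1 1.83 higher (adjusted p = 0.0429) and Ugt2b38 5.67 higher (adjusted p = 0.0422). These 3 and Ugt1a6b had a limma adjusted p under 0.05 in that fit, against 2.01% of all genes, and in it 2 of the 3 remaining E171 arrays of the day had low posterior Hox genes. Sult2a1 to Sult2a6, Sult3a1 and Sult6b1 were well above background on at most 5 arrays each and were not tested.

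Of the 19 tested GST genes, Gstk1 and Gstt3 were up-regulated after 7 days and Gsto1 after 14 days, and the class medians were 0.14 and 0.09. Gstk1, the mitochondrial and peroxisomal kappa form (mm9 chr6:42200381-42200440), was at 1.75, 1.23, 1.18 and 1.92 in CRC and at 1.58, 3.30, 2.48 and 3.04 in CRC + E171 at 7 days. All E171 arrays but female 1 lay above the CRC arrays. The means were 2.60 ± 0.76 (SD, n = 4) and 1.52 ± 0.37 (SD, n = 4), a log2 fold change of 1.08 (SE 0.44, limma p = 0.0214, adjusted p = 0.235, exact permutation p = 0.0857). Gstk1 was also called without the low colonocyte arrays (log2 fold change of 1.11) and without the low posterior Hox arrays (0.85, limma adjusted p = 0.319). In both fits 0 enzymes had an adjusted p under 0.05 at 7 days. Without both sets the log2 fold change of Gstk1 was 0.88. Among the controls of another day, the CRC males of 2 days were at 3.03 and 2.33.

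Gstt3, a theta form, was at 3.04, 2.88, 1.20 and 1.28 in CRC and at 2.89, 2.88, 2.94 and 2.47 in CRC + E171 at 7 days, so that only the CRC males were low. The log2 fold change of 0.69 (SE 0.33, limma p = 0.0478, adjusted p = 0.295, exact permutation p = 0.343) became -0.16 without the arrays with low colonocyte markers. For Gstt2 the log2 fold change was 0.80 (SE 0.45, limma p = 0.0865, adjusted p = 0.364, exact permutation p = 0.314), which did not pass. Gsto1, the omega form, also reduces dehydroascorbate and methylated arsenic. It was at 4.44, 4.55, 4.44 and 4.42 in CRC and at 5.22, 5.04, 4.96 and 6.35 in CRC + E171 at 14 days. All E171 arrays lay above all CRC arrays. The log2 fold change was 0.93 (SE 0.38, limma p = 0.0214, adjusted p = 0.571), with an exact permutation p of 0.0286, the smallest possible. The value of Gsto1 was 0.61 without the low colonocyte arrays, 1.19 without the low posterior Hox arrays and 0.50 (SE 0.24) without both, where it was not called.

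Gsto1 and Ugt1a6b were the 2 of 42 enzymes whose groups did not overlap after 14 days, where 3.21% of all genes had every E171 array above every CRC array. After 7 days 0 of 42 enzymes had groups that did not overlap, against 2.84% of all genes with E171 above. The alpha, mu and pi forms, which carry much of the glutathione conjugation of the epithelium, were not called on any day with all arrays. Gsta3 was called lower after 7 days without the low posterior Hox arrays (log2 fold change of -1.03, SE 0.47, limma adjusted p = 0.329) and without both sets (-1.41, SE 0.54). Its lowest level of all 31 arrays was -4.05, on CRC + E171 7 days male 2, so the size of both values rests in part on 1 array. The other E171 arrays kept were at -1.2 and -1.57, within the range of the CRC arrays of that day. They lay below the CRC females (-1.01 and -0.72), the only CRC arrays of 7 days left without both sets. Gstp1 was called higher after 14 days without the low colonocyte arrays (log2 fold change of 0.63, SE 0.25). In order of day, the log2 fold changes of CRC + E171 against CRC were -0.06, 0.13, 0.09 and 0.19 for Gstm1. Those of Gstp1 were -0.08, 0.19, 0.40 and 0.51. After 21 days 0 of 19 GST genes were called. Their log2 fold changes had a median of 0.35 and a highest value of 0.58, and 18 of 19 were above 0, against 52% of all genes.

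A single array, CRC + E171 21 days female 2, held the highest level of all arrays for 12 of the 19 GST genes, where 15.2% of all genes had their highest level on it. Gstp1 was at 4.31 on this array against 2.97 to 3.18 on the other E171 arrays of 21 days and 2.74 to 3.13 in CRC. The summed levels of its pancreatic acinar markers (10.5), epithelial markers (9.28) and goblet cell markers (9.63) were the highest of all 31 arrays, and its colonocyte level of 8.67 was the highest of the 25 arrays outside both sets. The part of these levels in the GST values was not tested. Without this array 17 of the 19 GST values after 21 days were above 0, against 46.7% of all genes, with a median of 0.21, and no enzyme was called.

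Mgst2 and Mgst3 are membrane-bound forms that act on lipid peroxides and leukotriene precursors, and both were up-regulated after 7 days. Mgst2 (mm9 chr3:51486449-51486508) was at 4.67, 4.17, 3.14 and 2.11 in CRC and at 4.56, 5.69, 4.52 and 4.51 in CRC + E171. The CRC males were the lowest, and E171 female 2, which has low posterior Hox genes, was the highest. Between the groups Mgst2 differed by 1.29 on the log2 scale (SE 0.45, limma p = 0.00818, adjusted p = 0.204, exact permutation p = 0.114). It was 0.40 without the low colonocyte arrays, 1.0 without the low posterior Hox arrays, and 0.10 without both. Mgst3 had a log2 fold change of 1.0 (SE 0.46, limma p = 0.0420, adjusted p = 0.283, exact permutation p = 0.429) that became -0.20 without the low colonocyte arrays. Mgst1 had values of -0.34, -0.04, 0.62 and 0.29 in order of day and was not called with all arrays. It was called after 14 days without the low colonocyte arrays, with a log2 fold change of 1.06 (SE 0.30, limma adjusted p = 0.061).

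**Figure D4:**
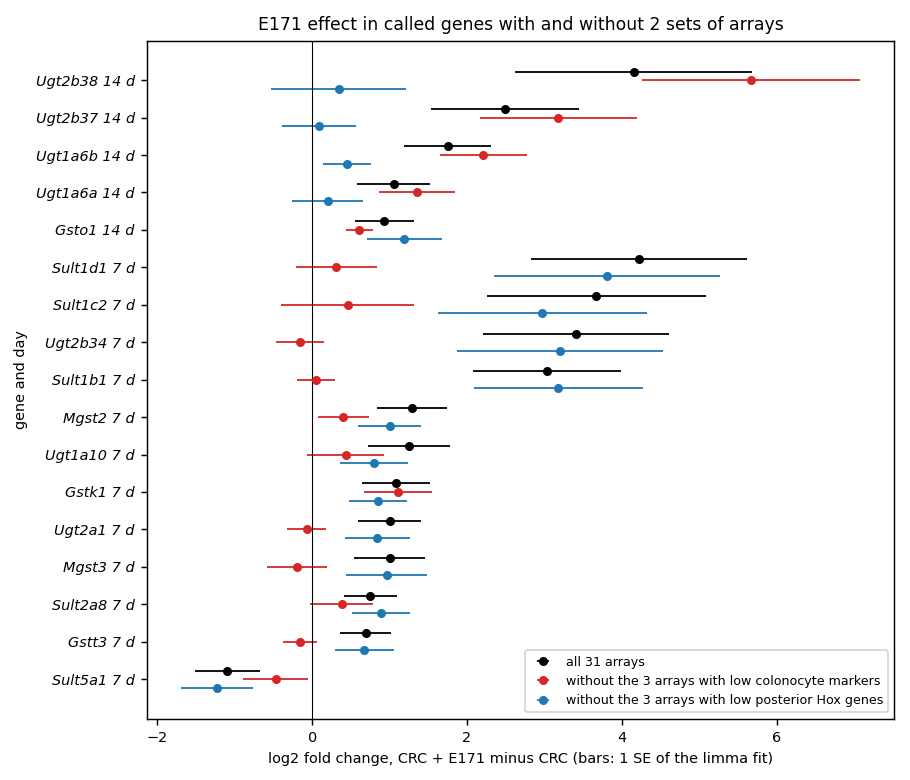
Log2 fold change of CRC + E171 against CRC (horizontal axis, bars of 1 SE from limma) for each enzyme called after 7 or 14 days (vertical axis), with all arrays and without each of the 2 sets. The 7-day values of Sult1d1, Sult1c2, Ugt2b34 and Sult1b1 move from 3.03 or more to 0.46 or less without the low colonocyte arrays, and Ugt2b38 at 14 days moves from 4.15 to 0.34 without the low posterior Hox arrays.

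Sult1b1, Sult1d1 and Sult1e1 neighbour the Ugt2 genes on chromosome 5. In the mm9 annotation 12 of the enzymes lie within 686 kb, at chr5:87318849-88005246, in the order Ugt2b34, Ugt2b1, Ugt2b35, Ugt2b36, Ugt2b5, Ugt2b37, Ugt2a3, Ugt2b38, Ugt2a1, Sult1b1, Sult1d1 and Sult1e1, and 8 of them were tested. Ugt2b34, Ugt2a1, Sult1b1 and Sult1d1 were each lower on the 3 low colonocyte arrays than on the other 28. Ugt2b37, Ugt2b38, Ugt2b34, Ugt2a1 and Sult1d1 were each higher on the 3 low posterior Hox arrays than on the other 28. Sult1e1, the oestrogen sulphotransferase, was at -2.86 to -1.46 on the low colonocyte arrays and at -8.66 to -2.36 elsewhere, so it was not low where its neighbours were.

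**Figure D5:**
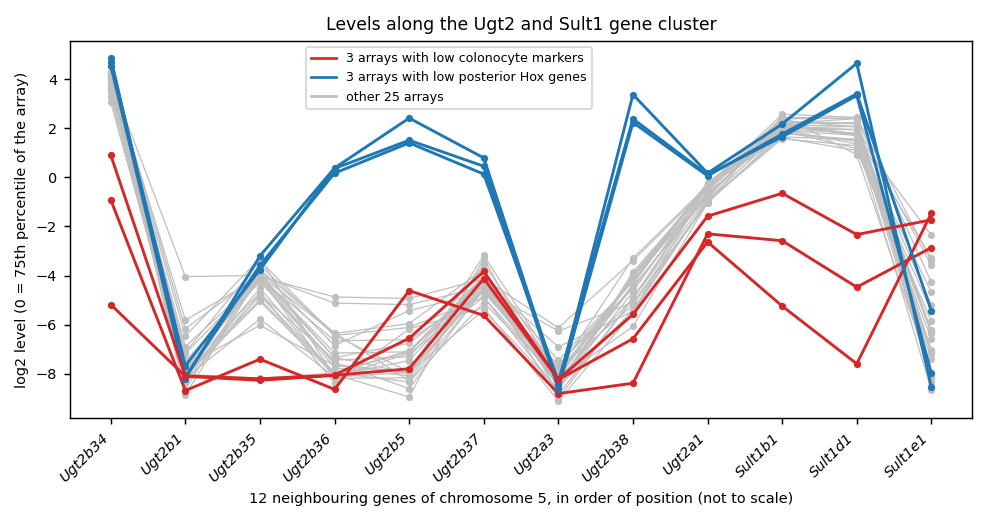
Log2 level (vertical axis, 0 is the 75th percentile of the array) of 12 neighbouring enzymes of chromosome 5 in gene order (horizontal axis, not to scale), with a line for each array; levels of different probes are not comparable, only the arrays within a gene. The 3 arrays with low posterior Hox genes stand above the rest from Ugt2b36 to Ugt2b38 except at Ugt2a3, and the 3 with low colonocyte markers below the rest at Ugt2b34, Ugt2a1, Sult1b1 and Sult1d1.

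Over the whole list, 10 of 42 enzymes were lower on each of the 3 low colonocyte arrays than on the other 28, against 5.71% of all genes. They were Gstm6, Gstm7, Gstt3, Mgst2, Sult1a1, Sult1b1, Sult1c2, Sult1d1, Ugt2a1 and Ugt2b34. No enzyme was higher there, against 4.11% of all genes. On the 3 low posterior Hox arrays 12 of 42 enzymes were higher than on the other 28, against 2.53% of all genes, and 0 were lower, against 1.14%. They were Gstk1, Mgst2, Sult1a1, Sult1c2, Sult1d1, Ugt1a10, Ugt1a6a, Ugt1a6b, Ugt2a1, Ugt2b34, Ugt2b37 and Ugt2b38. The part of the colonocyte, small intestine and pancreatic acinar levels of these arrays, given above, was not tested. These sets were formed after the markers had been seen, so the counts are a description.

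Slides held CRC arrays of one day with CRC + E171 arrays of another, so that only 2 mean effects can be had within slides, that of days 7 and 21 and that of days 2 and 14. Over 7 and 21 days within slides 3 of 42 enzymes (7.14%) were up-regulated, against 1.80% of all genes. Mgst2 had a log2 fold change of 0.90 (SE 0.35), Sult1b1 of 1.63 (SE 0.75) and Sult1d1 of 2.32 (SE 1.10), each with a limma adjusted p of 0.509. At an unadjusted p under 0.05 there were 4 of 42 enzymes, with Gstt3 as the fourth, against 9.37% of all genes, and 0% of all genes passed after adjustment. Over 2 and 14 days within slides Ugt2b37 was the 1 enzyme up-regulated, against 1.73% of all genes, and its log2 fold change was 1.74 (SE 0.71, limma adjusted p = 0.907). It was also the 1 enzyme with an unadjusted p under 0.05, against 5.28% of all genes, with 0% after adjustment. Without both sets of arrays no enzyme was called in either comparison, against 1.53% and 2.57% of all genes.

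Between days of the CRC arrays, 10 of 42 enzymes were lower and 1 was higher after 7 days than after 2 days, against 6.20% and 7.21% of all genes. The largest falls were in Sult1d1, which fell by 4.16 on the log2 scale, Ugt2b34 by 3.40 and Sult1b1 by 3.05, and Sult5a1 rose by 0.99. From 7 to 14 days 5 were higher and 2 lower, against 4.24% and 3.16% of all genes, with Sult1d1 up by 3.77, Ugt2b34 by 3.12, Sult1c2 by 3.06 and Sult1b1 by 2.73. The smallest limma adjusted p was 0.208 in the first of these comparisons and 0.487 in the second. Both share the CRC arrays of 7 days with the E171 comparison of that day. Without the low colonocyte arrays 0 enzymes were called from 2 to 7 days, against 1.68% of all genes higher and 0.63% lower. From 7 to 14 days Gstm4 was then the 1 called, with a log2 fold change of -0.82, against 1.41% of all genes higher and 2.51% lower.

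Gsto2, the second omega form, was the enzyme with the strongest course over days in CRC + E171. It was at -3.66, -4.28, -3.22 and -2.92 after 2 days and at -1.64, -1.79, -2.14 and -2.42 after 21 days, with no overlap. The difference was 1.52 on the log2 scale (SE 0.34, limma adjusted p = 0.0886), and Gsto2 was the 1 enzyme called from 2 to 21 days there, against 2.08% of all genes called higher. Its limma adjusted p was 0.0377 without the low colonocyte arrays, where 4 enzymes were called higher (3.09% of all genes), and 0.035 without both sets, where 5 were (3.61% of all genes). The others called there were Gstm1, Gstm4 and Sult2b1 in both fits and Sult1c2 in the second. Without the low posterior Hox arrays the adjusted p of Gsto2 was 0.0844. In CRC Gsto2 was also the 1 enzyme called from 2 to 21 days, higher by 0.81 (limma adjusted p = 0.899), against 2.12% of all genes. Over all 4 days the moderated F test gave an unadjusted p under 0.05 for 6 enzymes in CRC (9.88% of all genes) and 4 in CRC + E171 (14.6% of all genes). After adjustment 0 enzymes and 0% of all genes passed in either arm. The E171 effect differed between days at an unadjusted p under 0.05 for 0 enzymes (6.53% of all genes, 0% after adjustment).

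Sex was a further factor of the design. Over all groups 6 of 42 enzymes differed between females and males at an unadjusted p under 0.05, against 8.80% of all genes, and 0 after adjustment, against 0.0554%. Sult2a7, of the hepatic SULT2A family, had the smallest p. Its mean log2 level was -6.17 in 16 females and -7.70 in 15 arrays labelled male, CRC 14 days male 2 among them. The difference was 1.58 (SE 0.32, limma adjusted p = 0.0639). It was well above background on 10 of 31 arrays, so most of these levels are near the floor. The adjusted p of Sult2a7 was 0.00301 without the low colonocyte arrays and 0.119 without the array labelled CRC 14 days male 2. Sult1e1 was lower in females, at -6.86 against -4.76 (limma adjusted p = 0.272), and the 3 low colonocyte arrays, all from males, were among its highest. It was well above background on 16 of 31 arrays, so many of these levels are near the floor.

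The E171 effect differed between sexes on some day for 14 of 42 enzymes at an unadjusted p under 0.05, against 9.12% of all genes, and for 0 after adjustment, against 0.0605%. Sult1b1 had the smallest (limma adjusted p = 0.0926), followed by Sult1d1, Ugt2b34, Ugt2b38 and Sult1c2. At 7 days the log2 fold change of Sult1b1 was 6.16 (SE 0.75) in males and -0.11 (SE 0.75) in females. Each value was from 2 arrays against 2, and its SE from a spread pooled over all groups of treatment, day and sex. The SE is thus not the spread of these arrays, of which the CRC males were at -5.24 and -2.58. The male and female values were 7.47 and 0.97 for Sult1d1, and 6.59 and 0.23 for Ugt2b34. Sult1d1 was not well above background on CRC 7 days male 1, so the size of its male value rests on a level near the floor. At 14 days Ugt2b38 was 7.94 higher in E171 females and 0.35 higher in E171 males. The male value of 14 days counts the array labelled CRC 14 days male 2 as a male control, although its Xist and Uty lay within the range of the females. Both CRC males of 7 days have low colonocyte markers and both E171 females of 14 days have low posterior Hox genes, so sex and these sets cannot be told apart here. Without both sets no E171 difference is left in males at 7 days or in females at 14 days, so this test cannot be made for these days.

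The genes that supply, control and follow conjugation were read from lists chosen by name. After 7 days, when 6.93% of all genes were up-regulated and 5.48% down-regulated, 5 of 12 regulators were up-regulated and 0 down-regulated, among them Cdx2 at a log2 fold change of 2.72, Nr1i2 (the pregnane X receptor) at 2.59, Hnf4a at 2.43 and Nr1h4 (the bile acid receptor) at 1.41. Of 10 cofactor genes 2 were up-regulated, Papss2, which makes PAPS, by 1.92 and Gss, the last step of glutathione synthesis, by 0.89. Of 6 exporters of conjugates Abcc3 and Abcb1a were up-regulated and Abcc4 was down-regulated. Of 7 other conjugating enzymes Nat2 was up-regulated, and of 5 deconjugating enzymes none was called. In none of these 5 lists was a gene called after 7 days without the low colonocyte arrays.

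After 14 days 3 of 10 cofactor genes were up-regulated, against 3.24% of all genes. They were Ugdh, which makes UDP-glucuronic acid, with a log2 fold change of 1.13, and Gclc and Gclm, the subunits of the first enzyme of glutathione synthesis, with 0.84 and 0.89. Nr1h4, Rxra and Ppara were the 3 of 12 regulators up-regulated and Abcc3 the 1 of 6 exporters. Without the low posterior Hox arrays Gclm was the 1 gene still called on these lists. After 21 days Gclm was called, up by 0.60, and after 2 days no gene of these lists was.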

How the data were processed

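RNA of the colon of each mouse was hybridised to a one-colour Agilent array by the authors, and spots were read with Feature Extraction 10.7.3.1. The deposited intensity of each spot is a background-subtracted processed signal, not normalised between arrays. The authors also deposited log2 values normalised between arrays by a method not given in the sources used here; the submitters' processing notes name limma. From the processed signal, each array's 75th percentile was subtracted on the log2 scale, with spots marked as outliers left out. A probe was kept where, in some group, it was well above background on at least 60% of the arrays with a group mean of 4 or more in log2 signal. Probes were matched to RefSeq genes by accession (33903 probes), symbol (9458) or synonym (488), 12756 stayed unmatched, and probes of a gene were averaged. Positions of probes are those of the array's mm9 annotation.

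A limma fit over the 8 groups gave the E171 effect of each day and the differences between days, and further limma fits added slide or sex or split the groups by sex. P-values were adjusted by the Benjamini-Hochberg method over the 19845 genes tested. The fold threshold of 1.5 was read on the linear scale. The software was R 4.3.3 with the packages limma 3.58.1, statmod 1.5.0 and data.table (1.17.8). The fits were tested on simulated data. Exact permutation tests were two-sided. With no culture or litter given, p-values measure the spread between mice of one experiment.

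Named enzymes are those called for E171 on any day or named by the study, the main forms of each class, and up to 5 with an effect of sex or a difference of the E171 effect between days or sexes. Those with the largest change between days were to be named only with an adjusted p under 0.05, which none had; Gsto2 and the enzymes given between days were chosen after their values were seen, as were the values of single arrays. The members and the lists of marker and pathway genes were chosen with earlier results of these data known.

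The alternatives were quantile normalisation, normexp (offset of 50), no filter, the authors' values, the probe with the highest mean, slide as a random block, scan day or replicate number as a block, no slide term, only the groups compared, an adjusted p, and leaving out each array. Chosen after seeing the data were the fits without each set of 3 arrays, without both, and without the array labelled CRC 14 days male 2. The promoter sequences cover 48 of the 56 genes. The values of 1 gene of the pathway lists, which its list's counts include, are not reported here.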

Additional observations from a re-analysis of the deposited data

Results flagged for a closer look

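On 2 occasions 1 array stood apart from the other 3 of its group by Dixon's test, out of 34 groups of 4 arrays tested (5.88%), where chance gives about 1 in 20. Gstt3 was at 2.47 in CRC + E171 7 days male 2, below the 2.88 to 2.94 of the other arrays of that group. Mgst2 was at 5.69 in CRC + E171 7 days female 2, an array with low posterior Hox genes, above the 4.51 to 4.56 of the other arrays.

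A signal was seen for a pair of enzymes that did not pass the filter and entered no comparison. Ugt2b36 reached 0.38 on CRC + E171 14 days female 1, against -8.63 to -5.12 on the CRC arrays. Ugt2b5 reached 2.41 on the same array, against -8.08 to -4.61 on the CRC arrays.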

How the results depend on the processing

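Depth and signal limit the dim enzymes most, since 14 of 56 were not tested. Shares in brackets are those of all genes called in the same fit. Normexp background correction called 1 enzyme at 2 days (2.20%), 1 at 21 days (2.0%) and 3 over 2 and 14 days within slides (2.24%). With no filter 8 were called at 14 days (5.72%), 1 at 21 days (3.20%), 5 over 7 and 21 days within slides (3.99%), 2 over 2 and 14 days within slides (2.54%) and 1 between sexes (0.121%). The authors' values called 1 over 7 and 21 days within slides (4.42%). Scan day as a block called 6 at 7 days (8.80%), and no slide term 6 over 7 and 21 days (5.24%). The groups compared alone called 2, 2, 2 and 3 in order of day (2.83%, 4.79%, 7.34% and 4.03%), and an adjusted p called 0 at 7 and 14 days (0%).

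Without the low colonocyte arrays the calls were 1 at 7 days (2.66%), 17 at 14 days (14.1%), 1 at 21 days (4.30%), 1 over 7 and 21 days (1.37%), 6 over 2 and 14 days (4.42%) and 1 between sexes (0.116%). Without the low posterior Hox arrays they were 1 at 2 days (1.66%), 1 at 14 days (3.08%), 1 over 7 and 21 days (3.92%) and 0 over 2 and 14 days (1.84%). Without both they were 1, 2, 2 and 2 in order of day (2.34%, 2.78%, 9.89% and 4.69%), 0 and 0 within slides (1.53% and 2.57%) and 1 between sexes (0.111%). Without the array labelled CRC 14 days male 2 they were 2 over 7 and 21 days (4.16%) and 2 over 2 and 14 days (2.13%). Log2 fold changes at 7 days turned to -0.04 for Gstt2, -0.16 for Gstt3, -0.20 for Mgst3, -0.07 for Ugt2a1 and -0.16 for Ugt2b34 without the low colonocyte arrays. Without both sets they turned to -0.09 for Gstt2, -0.19 for Gstt3, -0.23 for Mgst3, -0.24 for Sult1c2, -0.10 for Sult1d1, -0.02 for Ugt1a10, -0.24 for Ugt2a1 and -0.37 for Ugt2b34, and at 14 days to -0.25 for Ugt2b37. Fewer arrays remained in these fits, and the cause was not tested.

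Leaving out each array in turn gave 0 to 1 calls at 2 days (155 to 710 of the 19845 genes) and 0 to 2 at 21 days (441 to 890 genes). At 7 days the range was 2 without CRC 7 days male 1 to 18 without CRC 7 days female 1, with 923 to 3983 of 19845 genes called in these fits and 0 to 5 enzymes with an adjusted p under 0.05, and at 14 days 2 without CRC + E171 14 days female 1 to 11 without male 2 (885 to 2138 genes). Within slides it was 1 to 11 over 7 and 21 days (324 to 2494 genes) and 0 to 4 over 2 and 14 days (301 to 824 genes). Calls between sexes were 0 to 1 (9 to 19 genes), those of the E171 effect between sexes 0 to 8 (2 to 834 genes, with 8 enzymes without CRC + E171 14 days male 1), and those between days 0 to 0 (0 to 11 genes in CRC and 0 to 84 in CRC + E171).

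With the replicate block 1, 11, 6 and 1 enzymes were called in order of day (3.40%, 12.8%, 7.69% and 4.21%), and 4 over 7 and 21 days within slides (5.82%). Arrays of different groups with the same sex and replicate number had a median correlation of 0.06 (-0.41 to 0.62), others -0.02 (-0.63 to 0.53). Arrays with replicate number 1 were on slides 1 to 4 and those with number 2 on slides 5 to 8, so the block also takes up the slides.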
